A study of Homo sapiens with 2 samples.

Results

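The 30 genes described here encode the general translation factors of human cells: 23 initiation factors, the poly(A)-binding protein PABPC1 and 6 factors of elongation. They were listed by name and function, with earlier results of these data known. SF3A1 contact with their RNA was read from 1 list of 2960 deletion sites that pools 2 libraries of CLIP-seq (crosslinking and immunoprecipitation with sequencing). Both libraries are of 1 group: C4-2B prostate cancer epithelial cells of a line made ready for CRISPR interference, grown for 48 h after seeding, crosslinked with 254 nm ultraviolet light at 400 mJ/cm2 and precipitated with 2 µg of an antibody to SF3A1. No untreated, mock or input library was analysed here. All 30 genes were found in the RefSeq gene table, and 18 of the 2960 sites (0.608%) lay inside their gene bodies, in 12 genes.

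SF3A1 is a subunit of the U2 small nuclear ribonucleoprotein, which recognises the branch point of introns during pre-mRNA splicing. Translation factors act later, on the finished mRNA in the cytoplasm. Initiation begins when the small ribosomal subunit, loaded with the initiator tRNA by eIF2 and held by eIF3, joins an mRNA whose cap is bound by the eIF4 proteins. It ends when eIF5B promotes joining of the large subunit. Elongation factors then bring each aminoacyl-tRNA to the ribosome and move the ribosome along the message. A site in the gene of such a factor is a position on its transcript, or on an RNA that overlaps it, and says nothing of the protein.

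At each site the list gives the tags (sequenced fragments) over 1 base and how many of them lacked that base. Such a deletion can arise where reverse transcriptase skips a base crosslinked to protein. The deleted share is the percentage of tags with the deletion, given with its exact 95% Clopper-Pearson interval. These intervals cover counting error only and treat tags as independent molecules. Because the libraries were pooled, there is no spread between replicates and depth per library is unknown, so no difference below was tested. Every listed site has at least 13 deleted tags. A gene without a site is therefore a gene without a position past the authors' limit, not a gene without contact. RNA levels were not measured, so more contact and more RNA cannot be told apart.

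A site was present in 12 of the 30 translation factor genes, or 40.0%. Among all 19866 nuclear protein-coding genes 2014 held a site, or 10.1%. Initiation genes, PABPC1 included, held a site in 10 of 24 cases and elongation genes in 2 of 6. Within initiation, 6 of the 10 eIF3 genes among the members had a site. The mRNA recruitment genes had one in 3 of 7 cases. The genes of start codon selection and subunit joining had one in 1 of 7 (14.3%), near the share over all protein-coding genes. With so few genes in each class, 1 gene moves a share by a large step. Sites numbered 15 in initiation genes and 3 in elongation genes. EIF4B held 3 sites, 4 genes (EIF3B, EIF3E, PABPC1 and EEF1D) held 2 each, and 7 genes held 1.

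The 30 genes differ widely in length, and most of the elongation genes are short. The median gene body was 23.3 kb for the 24 initiation genes and 7.44 kb for the 6 elongation genes. Per length the order of the classes turned round. Elongation genes held 5.41 sites per 100 kb and initiation genes 2.05, against 0.205 over all nuclear protein-coding genes. The latter include genes far longer than any member. Over protein-coding genes of 6.18 to 124 kb, the length range of the members with a site, it was 0.335. The elongation value rests on 3 sites in 55.5 kb. Of these, 2 lie in EEF1D, the lower covered of them with 15 tags. The other, in EEF1G, lies on the strand opposite to its gene. The median length was 31.2 kb for the 12 members with a site and 17.5 kb for the 18 without. Over all nuclear protein-coding genes the same medians were 61.7 and 21.9 kb.

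Read against genes of like length, the members held sites more often in each of 4 length classes, which were set after the values were seen. Up to 10 kb, 1 of 6 members had a site, against 3.08% of protein-coding genes of that length. That gene was EIF4A1, and the others were EIF1, EEF1A1, EEF1B2, EEF2 and EIF5A. Between 10 and 25 kb the count was 4 of 14, against 6.64%. Here both elongation genes, EEF1D and EEF1G, had a site, but that in EEF1G was on the strand opposite to the gene. Of the 12 initiation genes 2 had a site, EIF3I and PABPC1. Between 25 and 50 kb it was 5 of 8, against 11.5%, and between 50 and 150 kb it was 2 of 2, EIF5B and EIF3H, against 16.0%. The 4 elongation genes without a site were thus all under 10 kb, and the length gap between the classes and the count of genes hit move together; the part of length was not tested.

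**Figure D1:**
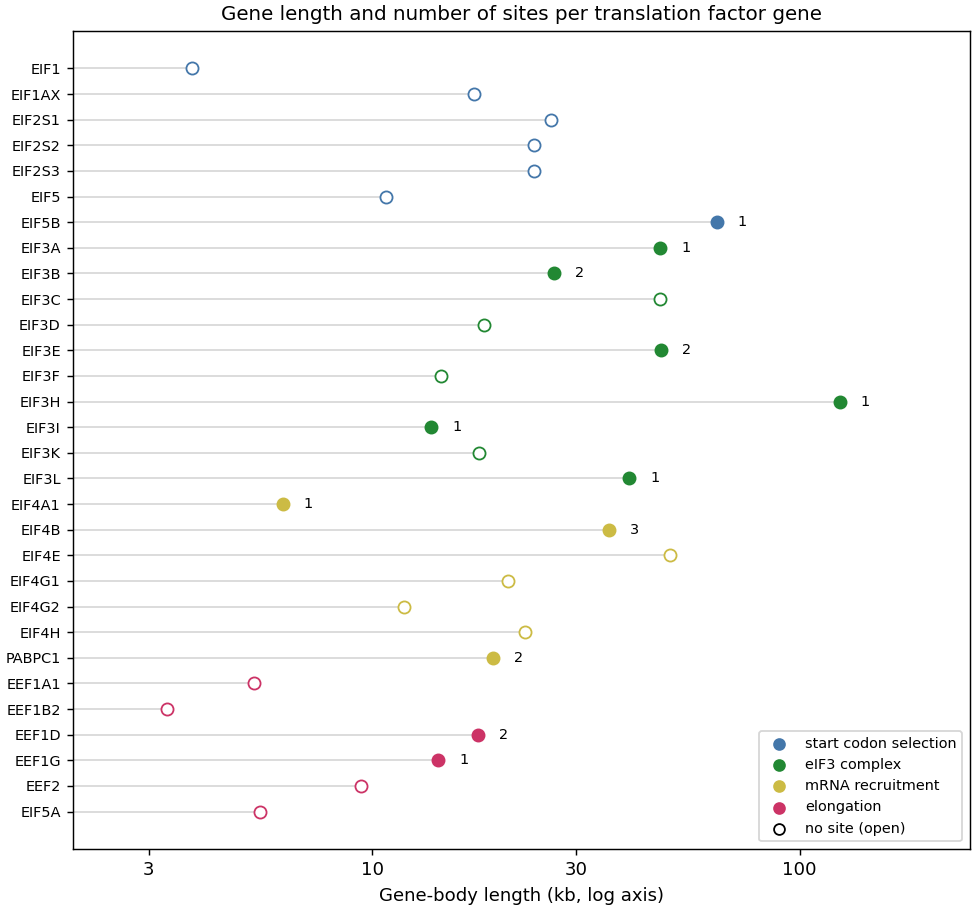
Gene-body length of the 30 translation factor genes (log axis, kb), coloured by role; filled points hold at least 1 site, with the number of sites beside them, and open points hold none. The 4 elongation genes without a site are shorter than 10 kb, and EIF4A1, at 6.18 kb, is the shortest gene with a site.

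**Figure D2:**
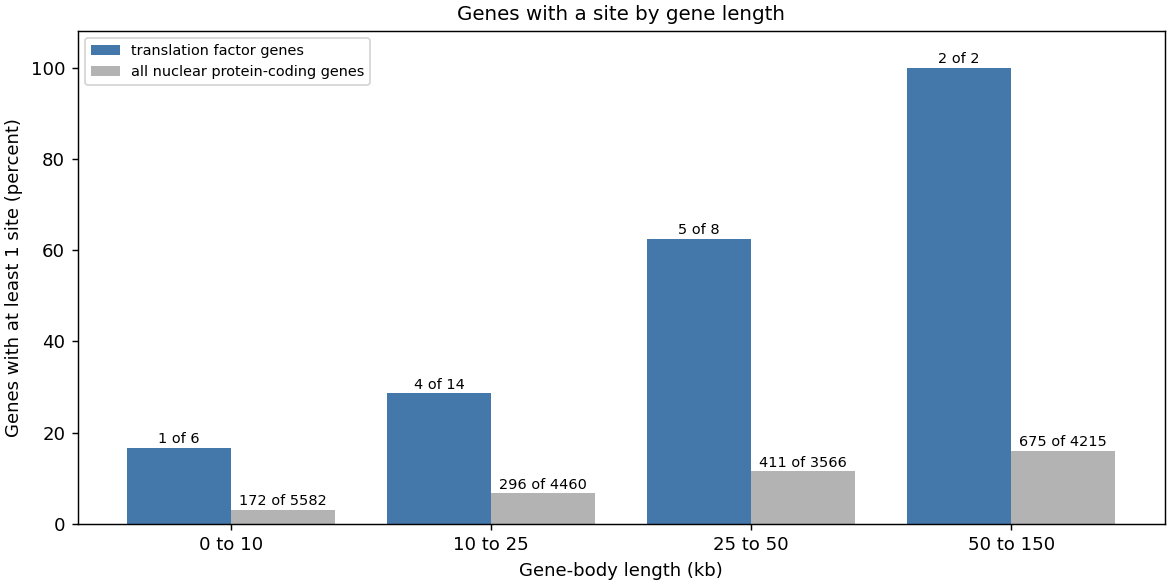
Percentage of genes with at least 1 site in 4 classes of gene-body length, for the translation factor genes (blue) and all nuclear protein-coding genes (grey), with the counts above the bars. Members range from 1 of 6 to 2 of 2 and protein-coding genes from 3.08% to 16.0%.

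Among the factors that select the start codon and join the subunits, 1 of 7 genes had a site, a share near the 10.1% over all protein-coding genes. EIF1 (3.78 kb) and EIF1AX (17.3 kb), which keep the scanning ribosome open, were without one. So were the 3 subunits of eIF2, the carrier of initiator tRNA: EIF2S1 at 26.2 kb, EIF2S2 at 23.9 kb and EIF2S3 at 23.9 kb. EIF5 (10.8 kb), which makes eIF2 hydrolyse its GTP, had none either. The gene with a site was EIF5B (chromosome 2, 99337389 to 99401326), the GTPase of subunit joining and, at 63.9 kb, the longest gene of this class. Its site, at 99384881 on the plus strand, had the deletion in 40 of 40 tags (100%, interval 91.2 to 100) and lay 47492 nt from the 5′ end of the gene body.

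The eIF3 complex is the largest initiation factor and the scaffold on which the others assemble. Of the core subunits with PCI domains that are among the members, EIF3A, EIF3E and EIF3L had sites, and EIF3C and EIF3K had none. EIF3A (chromosome 10, 119033670 to 119080817) had 1 site at 119045600 on the minus strand, deleted in 88 of 88 tags (interval 95.9 to 100). EIF3E (chromosome 8, 108201216 to 108248717) had 2 sites 33969 nt apart on the minus strand. At 108247444 the deletion was in 64 of 67 tags (95.5%, interval 87.5 to 99.1), and at 108213475 in 56 of 56 (interval 93.6 to 100). The 2 intervals overlap. EIF3L (chromosome 22, 37849419 to 37889407) had 1 site at 37888377 on the plus strand, in 32 of 33 tags (97.0%, interval 84.2 to 99.9). By the strand of the site, it was the member site closest to a 3′ end, 1030 nt away.

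Outside the PCI subunits, sites lay in EIF3H, EIF3B and EIF3I, and the last had the most tags of any member site. EIF3H, an MPN-domain subunit (chromosome 8, 116642130 to 116766374), is the longest member at 124 kb and had 1 site at 116722191 on the minus strand, deleted in 120 of 120 tags (interval 97.0 to 100). Its MPN partner EIF3F (14.5 kb) had none. EIF3B, the scaffold that holds EIF3I and EIF3G in the complex (chromosome 7, 2354086 to 2380745), had 2 sites on the plus strand, 13827 nt apart. Both were complete, with 82 of 82 tags at 2358694 (interval 95.6 to 100) and 47 of 47 at 2372521 (interval 92.5 to 100).

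EIF3I, the WD-repeat partner of EIF3B (chromosome 1, 32222407 to 32236170), had the best covered site of all members. The deletion at 32234868 on the plus strand was in 164 of 164 tags (interval 97.8 to 100), which ranked 197 of 2960 sites by deleted tags. This base also lies in the annotated body of the pseudogene MTMR9LP, so the RNA it marks is uncertain. EIF3D (18.3 kb), which can itself bind the cap, EIF3K (17.8 kb) and EIF3C (47.2 kb) had no site. EIF3C has a near-identical copy, EIF3CL, whose body held 0 sites. Reads shared by such copies are hard to place, so the absence in EIF3C is uncertain.

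In mRNA recruitment, the sites lay in the helicase EIF4A1, its stimulating partner EIF4B and PABPC1. EIF4A1 (chromosome 17, 7572825 to 7579006) unwinds structure in the 5′ leader. Its site at 7575504 on the plus strand had 65 of 67 tags deleted (97.0%, interval 89.6 to 99.6). The same base lies in the readthrough gene SENP3-EIF4A1, on the same strand. EIF4A1 also contains 3 small nucleolar RNA genes, SNORA48, SNORD10 and SNORA67, and the site lay 657 nt from the nearest, SNORA48.

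EIF4B (chromosome 12, 53006456 to 53042215) was the member with the most sites. On the plus strand, the site at 53007607 had the deletion in 78 of 78 tags (interval 95.4 to 100) and the site at 53016620 in 67 of 67 (interval 94.6 to 100). The site at 53026130 had it in 26 of 33 (78.8%, interval 61.1 to 91.0). This last interval lies below those of the other 2 EIF4B sites and does not overlap them. The 3 sites were evenly spaced, 9013 and 9510 nt apart.

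PABPC1 binds the poly(A) tail and, through EIF4G1, links it to the cap. Its gene (chromosome 8, 100702916 to 100722088) had a site near each end, on the minus strand. The strand of the gene was not given, so its ends are named by the strand of the sites. The one at 100721929 lay 159 nt from the 5′ end with 51 of 51 tags deleted (interval 93.0 to 100), and no other member site was closer to an end. The one at 100704127 lay 1211 nt from the 3′ end with 38 of 39 (97.4%, interval 86.5 to 99.9). The cap-binding protein EIF4E (49.9 kb), the scaffolds EIF4G1 (20.8 kb) and EIF4G2 (11.9 kb) and the helicase cofactor EIF4H (22.7 kb) had no site. EIF4E was the longest member without one.

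Elongation sites lay in the gene bodies of 2 subunits of the exchange complex that reloads eEF1A with GTP, 1 of them on the opposite strand. The genes of the GTPases, EEF1A1 and EEF2, held none. Both are under 10 kb, where 3.08% of protein-coding genes held a site, so their absence is near that background. EEF1D (chromosome 8, 143579728 to 143597415) encodes an exchange subunit and had 2 sites 2091 nt apart on the minus strand. At 143586298 the deletion was in 92 of 93 tags (98.9%, interval 94.2 to 99.97). At 143588389 it was in 15 of 15 (interval 78.2 to 100), the lowest coverage of any member site. EEF1G (chromosome 11, 62559596 to 62573891) encodes the scaffold subunit, and its site at 62564464 had 49 of 60 tags deleted (81.7%, interval 69.6 to 90.5). That site was on the plus strand, whereas the gene is on the minus strand, so it does not lie on EEF1G RNA as annotated. No other annotated gene covers it. Without it, elongation had a site in 1 of 6 genes.

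The remaining elongation genes had no site. These were the third exchange subunit EEF1B2 (3.32 kb), the tRNA carrier EEF1A1 (5.28 kb), the translocase EEF2 (9.41 kb) and EIF5A (5.47 kb). EIF5A is named as an initiation factor but helps the ribosome past difficult peptide bonds. Counted with initiation instead, it leaves initiation with a site in 10 genes and elongation in 2, because it holds no site itself. Only the class sizes change. The shares with a site, 41.7% in initiation and 33.3% in elongation before the move, no longer differ after it.

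**Figure D3:**
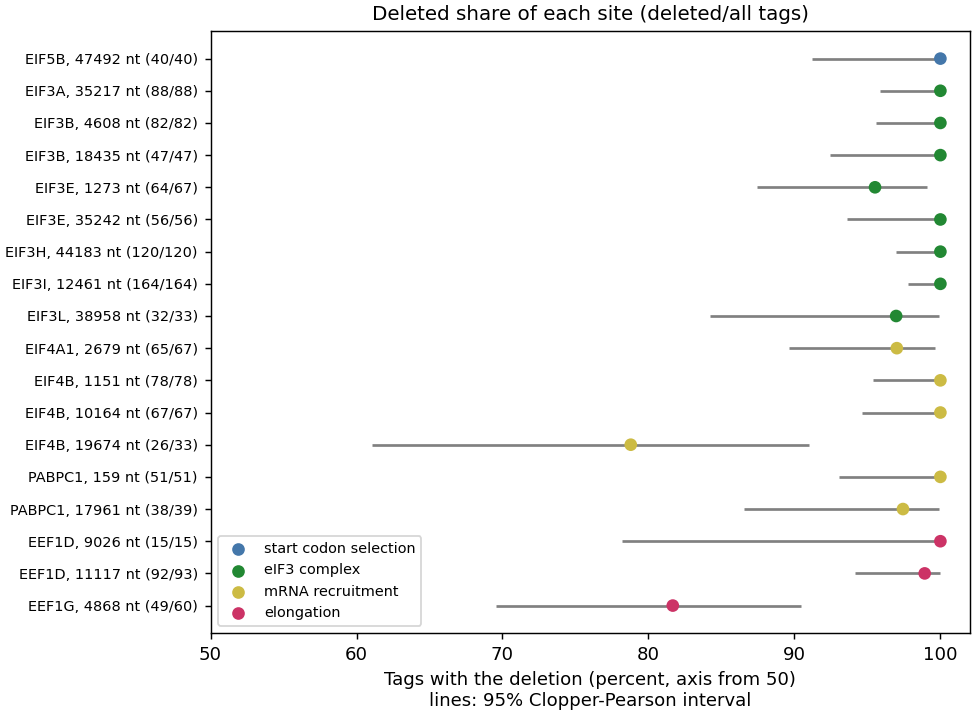
Deleted share of the 18 sites (points, coloured by role; axis from 50 to 100%) with 95% Clopper-Pearson intervals; labels give the gene, the distance from the 5′ end of the gene body on the site's strand, and deleted over all tags. Only the EIF4B site at 78.8% and the EEF1G site at 81.7% lie under 90%.

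Deletions were near complete at most member sites. Of the 1200 tags over the 18 sites, 1174 carried the deletion. Of the 26 that did not, 18 came from the EIF4B site at 53026130 and the EEF1G site. The deletion was in every tag at 11 of 18 sites (61.1%). Over the 2571 sites in nuclear protein-coding gene bodies it was so at 1988 (77.3%). Another 5 member sites, in EIF3E, EIF3L, EIF4A1, PABPC1 and EEF1D, had 1 to 3 tags without it. Complete sites numbered 10 of 15 in initiation genes and 1 of 3 in elongation genes. A deletion in every genomic copy of a position would also be present in every tag, and one in some copies only in part of the tags. Without a control library, neither can be told apart from a crosslink at these sites.

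Coverage of the member sites was close to that of other genes. The median was 63.5 tags (interquartile range 41.8 to 81.0, lowest 15, highest 164), against 52 (29 to 92) over sites in nuclear protein-coding genes. By class the medians were 74.5 tags for eIF3, 59 for mRNA recruitment and 60 for elongation. The single site of start codon selection had 40. The ranges overlapped: eIF3 sites had 33 to 164 tags, mRNA recruitment sites 33 to 78 and elongation sites 15 to 93.

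Along the gene body the member sites were spread from end to end. Counted on the strand of the site, 8 lay before the middle of the gene and 10 after it, and the median position was 53.0% of the length, against 51.3% over protein-coding genes. In 4 equal parts from 5′ to 3′ there were 4, 4, 7 and 3 sites. The median was 55.0% in initiation and 51.0% in elongation genes. It was 71.7% for the 8 eIF3 sites and 35.9% for the 6 mRNA recruitment sites, but both classes had sites near each end: eIF3 sites ran from 2.68 to 97.4% and mRNA recruitment sites from 0.829 to 93.7%. Elongation sites stayed between 34.1 and 62.9%. On the annotated strand of EEF1G its site would lie at 65.9% in place of 34.1%.

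Of the 18 sites, 6 lay within 1500 nt of an end of the gene body, a distance set after the positions were seen. The ends are named by the strand of the site, because the strand of PABPC1, EIF3E and EIF3L was not given. At the 5′ end these sites were in PABPC1 (159 nt), EIF4B (1151 nt) and EIF3E (1273 nt). At the 3′ end they were in EIF3L (1030 nt), PABPC1 (1211 nt) and EIF3I (1302 nt). This is 33.3%, against 13.0% of site and gene pairs over protein-coding genes of the length range of the members with a site. Those genes are longer, with a median of 42.0 kb where they hold a site against 31.2 kb for the members. All 6 were in genes of eIF3 or mRNA recruitment. The nearest elongation site, that in EEF1G on the strand opposite to the gene, lay 4868 nt from an end.

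**Figure D4:**
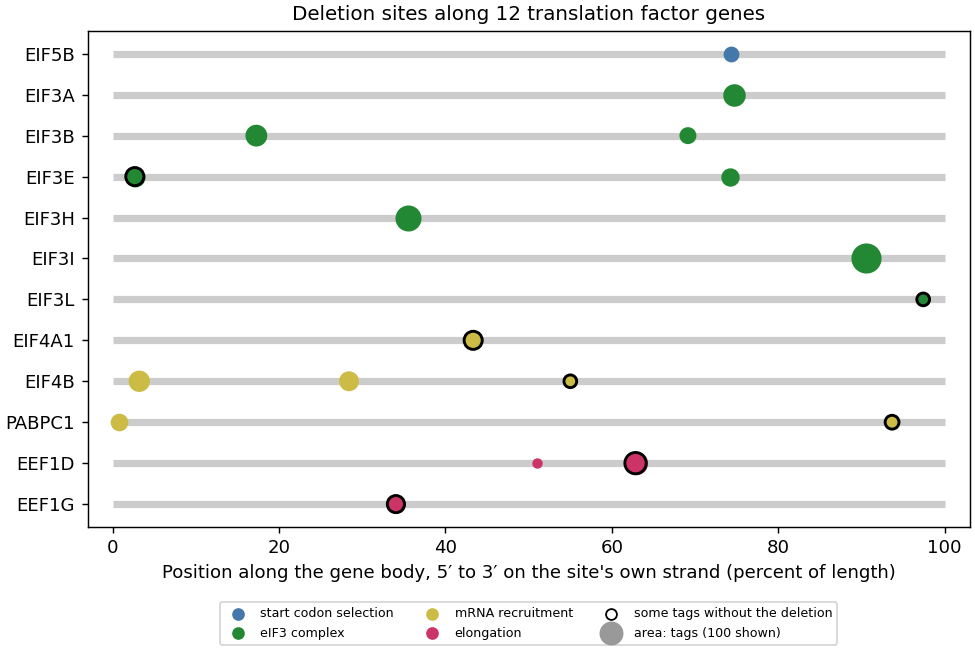
Position of the 18 sites along 12 gene bodies, scaled to percent of length and read 5′ to 3′ on the strand of the site; point area gives the tags, colour the role, and a black ring marks sites with some tags lacking the deletion. PABPC1 has a site near each end. Elongation sites lie between 34.1 and 62.9%, but the one at 34.1% is the EEF1G site, on the strand opposite to its gene.

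The strand of a gene was given in the reference for 23 of the 30 members, 6 of which had a site. Of their 9 sites, 8 were on the strand of the gene and the EEF1G site was not. Over nuclear protein-coding genes with a known strand and no second gene at the site, 1878 of 1944 sites (96.6%) were on the gene's strand. The 5 members with several sites had all of them on 1 strand.

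All 4 members on chromosome 8 had a site, as did 8 of the 26 members elsewhere. EIF3E, EIF3H, PABPC1 and EEF1D held 7 of the 18 sites. On this chromosome 83 of 707 nuclear protein-coding genes held a site, or 11.7%, close to the 10.1% over all chromosomes. The 4 members all start at or beyond position 100702916, and genes of that part alone were not counted. This grouping was noticed after the sites were placed.

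Translation factor genes have many processed pseudogenes, which can take up reads of the parent gene. The gene table held 154 pseudogenes named after 20 of the members, 50 of them after EEF1A1 and 13 each after EIF4A1 and PABPC1. Of the 154, 1 held a site, against 0.190% of all 16860 annotated pseudogenes. This was EIF4BP3 (chromosome 9, 96145980 to 96147965), with 22 of 22 tags deleted at 96146017 on the plus strand. Parent genes with such copies, EEF1A1 above all, are uncertain in both directions. The members also contain 11 annotated small nucleolar RNA genes in 7 host genes, among them SNORD37 in EEF2 and SNORD51 and SNORA41 in EEF1B2. Of the 11, 0 held a site, against 1.17% of all 1193 annotated snoRNA genes, so a count of 0 is near the background. Of the hosts, 2, EIF3A and EIF4A1, had a site elsewhere in the body.

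A further 43 genes of the pathway were examined for comparison, and 10 held a site (23.3%, against 10.1% over all nuclear protein-coding genes), with 14 sites in all. The 9 genes of eIF2B, the exchange factor of eIF2, and of the eIF2 kinases held 0, a count near that background. In mRNA recruitment 4 of 11 did. EIF4A2, the paralogue of EIF4A1, had 3 sites within its 6.32 kb, with 78 of 78, 101 of 101 and 136 of 430 tags deleted. The last (31.6%, interval 27.3 to 36.3) lies in SNORD2 and has a lower share than any member site. EIF4G3, a paralogue of EIF4G1, had 3 sites in 371 kb, and PABPC4, a paralogue of PABPC1, had 1. EIF4EBP1, a repressor that binds EIF4E, had 1 site with 28 of 28 tags.

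In the other steps 6 genes held 1 site each. EIF3M, 1 of 3 further eIF3 genes, had 60 of 60 tags deleted, and DENR, a reinitiation and recycling factor, 23 of 23. Both genes of subunit joining and recycling held one, EIF6 with 95 of 95 tags and ABCE1 with 37 of 37. The release factor ETF1 had 19 of 19. DHPS, which begins the hypusine modification of EIF5A, was the only gene with a site among 9 further elongation genes. That share is near the 10.1% over all nuclear protein-coding genes. The DHPS site had the deletion in 1258 of 1268 tags (99.2%, interval 98.6 to 99.6), rank 8 of the 2960 sites. It lay 667 nt from the 5′ end, while EIF5A itself had no site.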

How the data were processed

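The values are from CLIP-seq of SF3A1 in C4-2B cells, 2 libraries of 1 group. The authors pooled the libraries and deposited, for each site, a whole-number count of tags with the deletion and a name that holds the count of tags over it, neither of them normalized. Its file name describes unique tags, deletions, crosslink-induced mutation sites (CIMS) and an FDR of 10. Whether "unique" refers to mapping or to duplicates is not stated. Build hg38 and the tools UMI-tools, cutadapt, SAMtools and BWA 0.7.17 are named in the submitters' processing notes, without their roles. The 2 copies of the deleted count were equal on all 2960 lines.

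Sites were placed in RefSeq gene bodies of GRCh38.p14, whose primary chromosomes have hg38 coordinates. Of 59792 rows, 58993 on primary chromosomes with distinct symbols were used. A site on either strand counted, and coordinates are 1-based. Gene strand came from a RefSeq promoter table. Exons, introns and sequence around the sites were not analysed here. The 0 sites in promoter windows of members left no sequence to show.

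The members, their roles and the lists were chosen with earlier results of these data known. All members are accounted for, every site in them is described, and every other pathway gene with a site is named. Placement of sites was tested on simulated data. Python 3.11.15, numpy 2.4.6, pandas 2.3.3, scipy 1.17.1 and matplotlib 3.10.9 were used. Alternatives covered tags, deleted share, overlapping genes, merging, strand, gene edges and class membership.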

Additional observations from a re-analysis of the deposited data

How the results depend on the processing

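Under several alternatives, counts of genes and sites moved by less than 1.5 times and medians by less than 1 SD over sites. These were leaving out sites in a second gene, merging sites within 50 nt, widening gene bodies by 1000 nt, moving EIF5A to initiation and leaving out PABPC1. EIF5A holds no site, so moving it could change the shares of the classes but not these counts. Sites in 1 member gene were at least 2091 nt apart, and no site lay within 5000 nt outside a member gene body. Merging and widening therefore could not change the counts either. When only sites above the median count of deleted tags (50) were kept, 11 of the 18 sites were left, in 9 genes, with 1 elongation gene. The median position of the sites then moved from 53.0% to 35.6% of the gene length, against an SD over sites of 31.6. That SD is the spread of single sites, not the error of a median. A shift smaller than it does not show that the median is stable. Without sites opposite to a known gene strand, 1 elongation gene had a site in place of 2. At a deleted share under 0.9, 2 sites were left, 1 in an initiation gene and 1 in an elongation gene, with a median share of 80.2%. At a share under 0.4 all counts were 0 and no median could be given. With 18 sites in a pooled list, coverage and the number of sites limit every comparison of classes. Leaving out a library was not possible because the list is pooled. No paired analysis was possible because there is 1 group and no value per library.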
